A study of Saccharomyces cerevisiae with 24 samples.

Results

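D1/8 (KLY194) is a haploid budding yeast line that carries an additional copy of chromosomes I and VIII, and here it was set against its euploid counterpart, WT (RLY2626), prepared in the same run. The comparison took the libraries of genotype D1/8 in run 2: 4 of the 24 libraries of the series, from 2 cultures that the study describes as biological replicates. Each culture gave 1 library of ribosome-protected footprints (FP) and 1 library of total RNA (mRNA), and WT gave 1 library of each kind. Both strains are MATa S288c haploids with ura3, his3 and leu2 markers and LYS2, and WT also carries trp1. Both were grown in YPD, a rich glucose medium, at 25 °C and received cycloheximide, which stops translation elongation, shortly before harvest, so this treatment is shared by D1/8 and WT. Each lysate was split into the FP and the mRNA sample. D1/8 is 1 line, whose parent is NVY3 (D1/2/8) in one strain list of the study and RLY4938 in another, so its additional chromosomes cannot be told apart from other differences between this line and WT. A second line, D1/2/8/11 (KLY193, additional copies of chromosomes I, II, VIII and XI), entered the fits with its 2 cultures.

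Ribosome profiling counts the short RNA fragments that translating ribosomes shield from nuclease, so FP reads follow how much of a gene is being translated while mRNA reads follow the transcript itself. In yeast the transcription factor Gcn4 switches on enzymes of amino acid synthesis, and its own translation is held low by short upstream reading frames when amino acids are plentiful. Msn2 and Msn4 switch on genes of carbohydrate reserves and stress defence through stress response elements. A gene on a chromosome present in an additional copy is generally transcribed in proportion to its copy number unless its product or pathway is under feedback control.

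Values were RPKM, which scale the reads of a coding sequence by its length in kilobases and by the mapped reads of the library. A change is the log2 ratio of D1/8 to WT, centred so that the median over reading frames (ORFs) outside chromosomes I and VIII, called nonduplicated here, is 0. An ORF was called when limma, fitted over all ORFs tested, gave an adjusted p under 0.05 and both cultures lay at least 1.5-fold from WT in the same direction. For chromosomes I and VIII the same rule was applied to the departure from 2-fold. limma changes are on the log2(RPKM + 0.5) scale and are given with their standard error. With 1 WT library in each fraction, anything particular to that WT culture enters the change of both D1/8 cultures, so the RPKM of the WT library of run 1 is given beside many genes. These run 1 RPKM are as deposited and not centred, so levels set against them carry any offset between the runs. Only the fits that take the WT of run 1 as the reference are centred on it.

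The reads recovered from the RPKM steps came to 13162407 and 24932997 for the D1/8 FP libraries, against 12865276 for WT, and to 37141273 and 33999127 for the D1/8 mRNA libraries, against 30557932 for WT. Between the 2 D1/8 cultures the log2 ratio had an SD of 0.17 in FP and 0.17 in mRNA over the ORFs tested. The karyotype in the label was borne out by the chromosome medians given below. The marker in the strain list was not. That list gives D1/8 a TRP1-marked cassette that restores CAK1, a kinase that activates Cdc28, yet TRP1, an enzyme of tryptophan synthesis, was listed at 0 and 0.26 RPKM in D1/8 FP and at 0 in both D1/8 mRNA libraries, against 0 RPKM in both WT libraries of run 1. The D1/2/8/11 line, which has the same cassette in the list, had 375 and 358 RPKM of TRP1 mRNA, and its CAK1 mRNA stood at 186 and 183 RPKM. CAK1 mRNA was 45.3 and 37.6 RPKM in D1/8, against 37.5 RPKM in WT, so neither gene showed the cassette in the libraries labelled D1/8. The name D1/8 is kept below for the karyotype.

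Chromosomes I and VIII stood apart from the others in both fractions. The median change of the 76 ORFs of chromosome I was 1.11 ± 0.015 in FP (SD, n = 2 cultures), and that of the 238 ORFs of chromosome VIII was 0.99 ± 0.015. In mRNA the medians were 0.95 ± 0.0059 for the 91 ORFs of chromosome I and 0.96 ± 0.0071 for the 252 ORFs of chromosome VIII. A doubled level is 1 on this scale, so both chromosomes lay near the level set by copy number. Chromosome VI had the highest median of the rest, at 0.12 in FP and 0.07 in mRNA, and chromosome XVI was at -0.04 and -0.03.

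**Figure D1:**
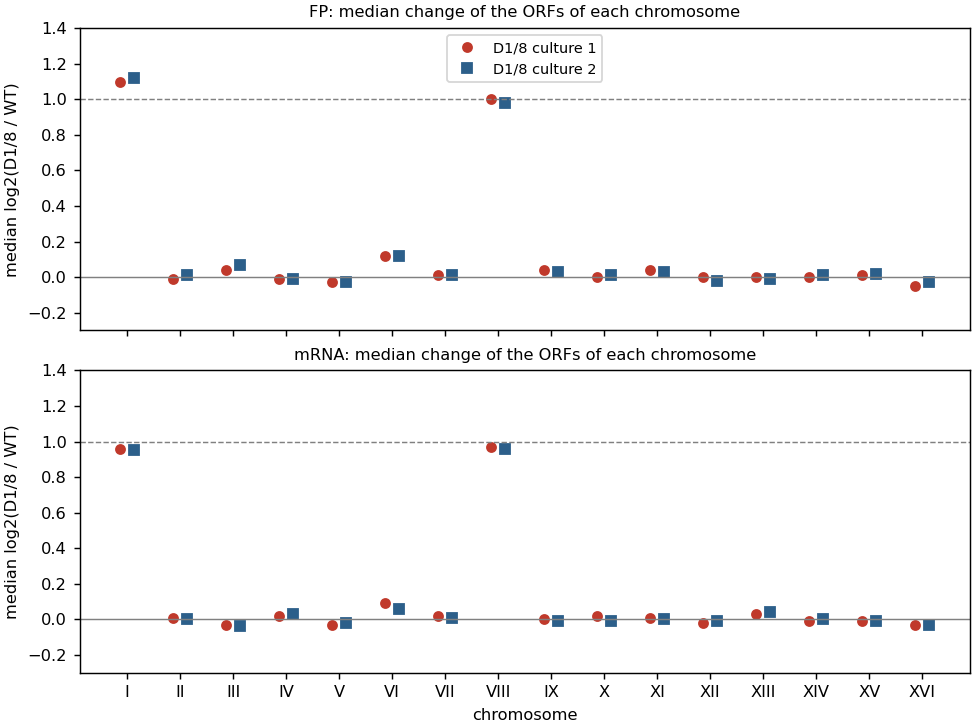
Median log2 ratio of D1/8 to WT over the ORFs of each chromosome (y axis) for chromosomes I to XVI (x axis), in FP above and mRNA below. Circles are culture 1 and squares are culture 2 of D1/8, the solid line is no change and the dashed line is 2-fold. Chromosomes I and VIII lie near the dashed line at medians of 0.95 to 1.12, and every other chromosome lies between -0.05 and 0.12.

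The ORFs of the duplicated chromosomes were spread about 2-fold somewhat more widely than nonduplicated ORFs were about no change. Over ORFs, the FP change had an SD of 0.59 and 0.55 in cultures 1 and 2, beside 0.49 and 0.47 for nonduplicated ORFs. In mRNA the SD was 0.49 and 0.47, beside 0.42 and 0.42. In FP, 86.3% and 86.0% of the 314 ORFs of chromosomes I and VIII lay within 1.5-fold of 2-fold in cultures 1 and 2, beside 87.2% and 88.0% of 4830 nonduplicated ORFs within 1.5-fold of WT. In mRNA the shares were 86.3% and 87.5% of 343 ORFs, beside 88.9% and 89.2% of 5249. In FP, 11 and 12 of the 314 ORFs were at or below the WT level. The 17 ORFs of these chromosomes within 25 kb of a chromosome end had FP medians of 0.89 and 0.73, against 1.04 and 1.03 for the 293 farther away, and in mRNA 26 such ORFs had 0.75 and 0.79, against 0.97 and 0.97 for 304. The ORFs near the ends thus had lower medians than the rest in both cultures and both fractions. In mRNA this was not particular to the duplicated chromosomes. Nonduplicated ORFs near the ends had mRNA medians of -0.14 and -0.18, against 0.01 and 0.01 farther away, and FP medians of 0.02 and 0.03. On chromosomes I and VIII, 15 ORFs in FP share more than 50% of their sequence with another coding sequence, where reads cannot be assigned to 1 copy. They also had low medians of 0.8 and 0.73.

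Outside the duplicated chromosomes, the clearest change was a fall of amino acid synthesis, above all of arginine, with a rise of some carbohydrate reserve and stress genes. In FP, 84 nonduplicated ORFs were called higher in D1/8 (1.78% of 4710 tested) and 139 lower (2.95%). In mRNA, 132 were called higher (2.58% of 5122 tested) and 214 lower (4.18%). Of the FP calls, 37 of the 84 higher were also called higher in mRNA, which is 44.0% of the FP list and 37 of the 132 on the mRNA list, and 77 of the 139 lower were also called lower, which is 55.4% of the FP list and 36.0% of the mRNA list. None was called in opposite directions. The FP calls rest on few libraries: with culture 1 left out limma called 8 higher and 29 lower, and with culture 2 left out 14 and 32. With either D1/2/8/11 culture left out it called 157 or 158 higher and 226 or 225 lower. With all 9 FP libraries of run 2 in the fit it called 0 and 0, while 619 ORFs then had an unadjusted p under 0.05, against 1436 in the fit with 5 libraries. In mRNA the fit with 9 libraries called 132 higher and 212 lower.

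The 7 enzymes of arginine synthesis described here were all at lower levels in both D1/8 cultures than in either WT library. CPA1, a subunit of the synthase that makes carbamoyl phosphate for arginine, had FP levels of 17.7 and 21.0 RPKM in D1/8, against 166 RPKM in WT, 8.62-fold lower (limma log2 change -3.08 ± 0.14, adjusted p = 0.00065). ARG5,6, which carries out the kinase and reductase steps from acetylglutamate, had 6.58 and 6.07 RPKM in D1/8 and 39.4 RPKM in WT. ARG7 and ARG8, which act in the same mitochondrial branch towards ornithine, were 4.87-fold and 4.28-fold lower in FP. The largest falls among these enzymes in FP were those of ARG3 and ARG1, which act after ornithine. ARG3, ornithine carbamoyltransferase, had 2.98 and 1.72 RPKM in D1/8 FP, against 35.9 RPKM in WT, a 15.8-fold difference (limma -3.71 ± 0.31, adjusted p = 0.00283). ARG1, argininosuccinate synthase, had 31.0 and 23.9 RPKM in D1/8 and 372 RPKM in WT, 13.7-fold lower (limma -3.75 ± 0.25, adjusted p = 0.00172).

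The fall was present in the transcripts too. The 6 of these that are nonduplicated were all called lower in both fractions, and their mean changes spanned -3.99 to -2.10 in FP, with -3.88 to -1.09 in mRNA. ARG1 mRNA was 35.0 and 26.5 RPKM in D1/8, against 449 RPKM in WT (limma -3.86 ± 0.15, adjusted p = 6.39e-06), and ARG3 mRNA was 4.91 and 5.11 RPKM, against 63.1 RPKM (adjusted p = 9.48e-08). ARG2, acetylglutamate synthase, which opens the ornithine branch, was not among these: it had 6.13 and 5.52 RPKM of FP in D1/8, against 10.1 RPKM in WT (adjusted p = 0.0789, not called), and was 2.09-fold lower in mRNA (adjusted p = 2.92e-05). Among the enzymes counted, ARG8 had the smallest change in mRNA, at 40.1 and 39.6 RPKM in D1/8 and 84.5 RPKM in WT. ARG4, argininosuccinate lyase, lies on chromosome VIII and is therefore present in 2 copies. Its FP level was 160 and 141 RPKM in D1/8, against 298 RPKM in WT, and its mRNA was 234 and 196 RPKM, against 467 RPKM. It was thus 1.98-fold lower in FP and 2.18-fold lower in mRNA than in WT in spite of the additional copy, and of the duplicated genes named here it lay farthest below 2-fold (limma departure -1.99 ± 0.12 in FP, adjusted p = 0.00152, and -2.12 ± 0.097 in mRNA, adjusted p = 1.62e-07). In the WT library of run 1 the 7 enzymes were 1.52 to 7.05 times the higher D1/8 culture in FP and 1.52 to 8.44 times in mRNA, so both WT libraries lay above both cultures for 7 of 7 enzymes in each fraction.

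GCN4, the transcription factor of these genes, had 57.0 and 49.3 RPKM in D1/8 FP, against 147 RPKM in WT, and 577 and 627 RPKM in D1/8 mRNA, against 981 RPKM in WT. It was lower by 2.77-fold in FP (limma -1.46 ± 0.14, adjusted p = 0.00467) and by 1.63-fold in mRNA (adjusted p = 2.92e-05), and neither WT library overlapped the D1/8 values. Its ribosome density, the FP level relative to the mRNA level, changed by -0.76 with an adjusted p of 0.0833 and was not called. ORT1, the mitochondrial ornithine transporter, fell 3.06-fold in FP (16.6 and 14.7 RPKM in D1/8, against 47.8 RPKM in WT) and 2.25-fold in mRNA. PCL5, a cyclin on chromosome VIII that promotes Gcn4 breakdown, had 130 and 133 RPKM of mRNA in D1/8, against 224 RPKM in WT, below 2-fold (limma departure -1.77 ± 0.087, adjusted p = 1.62e-07), while its FP level was 34.4 and 34.0 RPKM in D1/8 and 35.5 RPKM in WT, a departure with an adjusted p of 0.0707 that was not called.

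The letters TGACTC, the core of the Gcn4 binding site, were searched on both strands in the 300 bases upstream of each coding sequence, using the RefSeq R64 genome, the build named sacCer3. They are shown because they occurred in 36 of 137 such regions of ORFs called lower in FP (26.3%), in 4 of 83 called higher (4.82%) and in 451 of 5638 of all ORFs (8%). In mRNA they were in 27.8% of 180 regions of ORFs called lower. Each window below is 30 bases on the strand of the gene, with TGACTC or its reverse complement GAGTCA in capitals. No match was found in the region of ARG3. A match is a description of the letters and not evidence of binding.
CPA1, chrXV:882599-882628, + strand: tttctTGACTCgtcgtttctttttcttttt
ARG5,6, chrV:295175-295204, + strand: ttcttatccgaaTGACTCagtctacatcaa
ARG7, chrXIII:396514-396543, - strand: ggacaggtaggaTGACTCactgcgtaattc
ARG8, chrXV:58567-58596, + strand: cagctcgctatgTGACTCacttaaagtaca
ARG1, chrXV:218925-218954, + strand: tgccgtatggaaGAGTCAtttaaaggcagg
ARG4, chrVIII:141564-141593, - strand: ttagtagatgaaTGACTCactttttggata
HIS4, chrIII:68515-68544, - strand: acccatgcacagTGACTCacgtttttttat
SNZ1, chrXIII:458142-458171, + strand: atcatgacataaTGACTCagccgacaaggg
The matches of ARG7, ARG8 and ARG4 begin 152, 180 and 179 bases before the start codon, and that of CPA1 begins 295 bases before it.

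Of the 56 nonduplicated members tested of a list of amino acid synthesis enzymes, 16 were lower and 0 higher in FP, with a median change of -0.36, and 20 were lower and 0 higher in mRNA, with a median of -0.41, beside a median of 0.0 over all nonduplicated ORFs in both fractions. With the arginine genes and GCN4 taken out of the list, 8 of 48 were lower and 0 higher in FP (median -0.32), and 12 of 48 were lower and 0 higher in mRNA (median -0.33). HIS5, which acts late in histidine synthesis, had 76.3 and 72.8 RPKM of FP in D1/8, against 195 RPKM in WT, a 2.62-fold fall (adjusted p = 0.00172). HIS4, a trifunctional enzyme of the same pathway, fell 1.66-fold in FP and 1.78-fold in mRNA. LYS1, which makes lysine from saccharopine, had 106 and 106 RPKM of FP in D1/8 and 244 RPKM in WT, 2.31-fold lower. LEU4, the first enzyme of leucine synthesis, fell 1.83-fold in FP and 1.53-fold in mRNA, and HOM3, aspartate kinase, which opens the path to threonine and methionine, fell 1.91-fold and 2.06-fold. These enzymes belong to different amino acids, and each had both cultures below both WT libraries in both fractions.

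**Figure D2:**
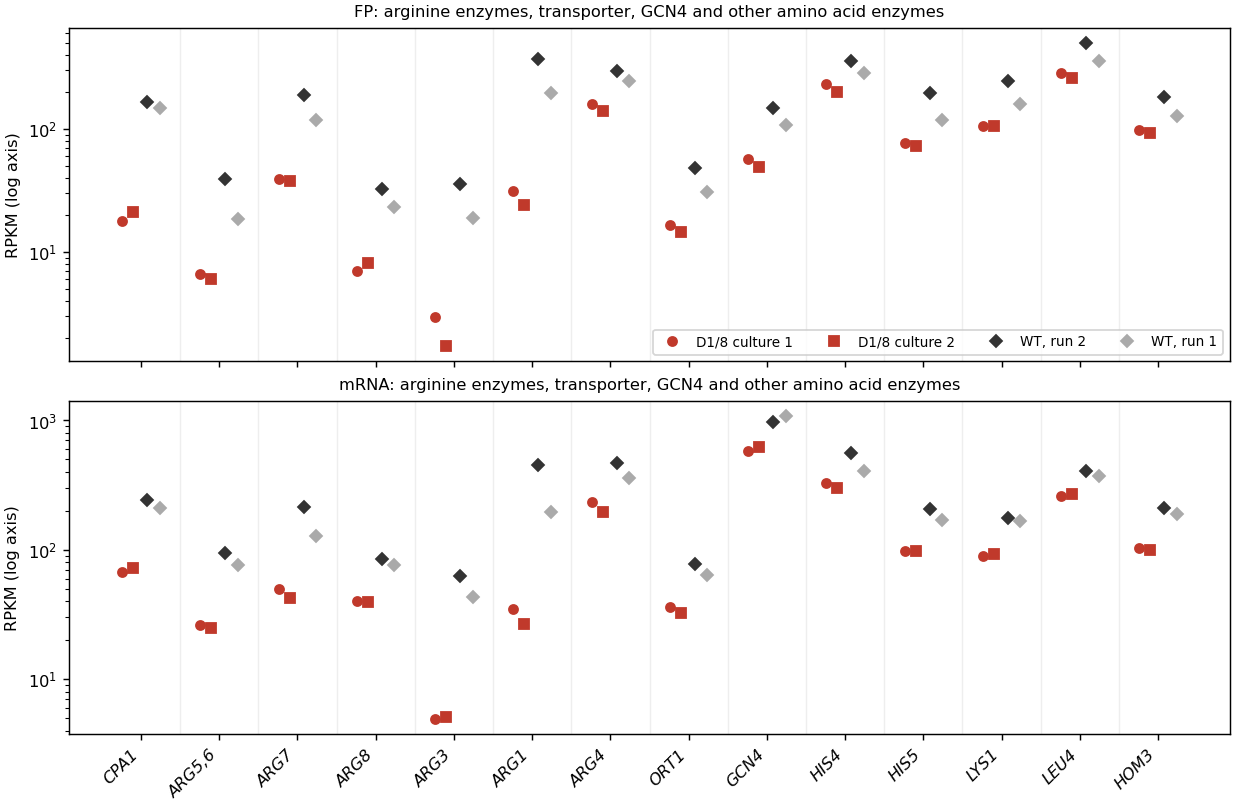
RPKM on a log axis (y axis) of the arginine enzymes, ORT1, GCN4 and 5 enzymes of other amino acids (x axis), in FP above and mRNA below. Within each gene the D1/8 cultures (red circle and square) stand left of WT of run 2 (black) and WT of run 1 (grey). For each gene both D1/8 cultures lie below both WT libraries, with the widest gaps at ARG3 and ARG1.

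Some sulfur and nitrogen genes were also lower. Of 29 nonduplicated members of a list of sulfate assimilation and methionine genes, 6 were lower and 1 higher in FP (median -0.35), and 9 were lower and 0 higher in mRNA (median -0.32). MET13, a methylenetetrahydrofolate reductase, had 10.9 and 10.4 RPKM of FP in D1/8, against 26.9 RPKM in WT, and STR2, cystathionine gamma-synthase, had 13.5 and 14.4 RPKM, against 33.2 RPKM. MET6, the methionine synthase, fell 1.89-fold in FP and 1.55-fold in mRNA. Fewer nitrogen genes were called: of a nitrogen catabolism list 1 of 17 was lower and 0 higher in FP, and 4 of 20 were lower and 1 higher in mRNA, and of amino acid permeases 2 of 19 were lower in FP and 4 of 19 in mRNA, with 0 higher. Over all nonduplicated ORFs 2.95% were lower in FP and 4.18% in mRNA. The FP counts of 1 and 2 genes are too small to set apart from that share. MEP2, an ammonium permease, had 4.92 and 4.14 RPKM of FP in D1/8 and 28.8 RPKM in WT, 6.38-fold lower (limma -2.55 ± 0.25, adjusted p = 0.00499), and its mRNA was 2.78-fold lower. GAP1, the general amino acid permease, fell 2.64-fold in FP (18.9 and 15.3 RPKM in D1/8, against 44.9 RPKM in WT), and its mRNA was 29.1 and 26.6 RPKM in D1/8, against 57.6 RPKM in WT of run 2 and 31.5 RPKM in WT of run 1. The GAP1 transcript was therefore low against 1 WT library and close to the other.

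Vitamin B6 synthesis had falls as large as those of arginine against the WT of run 2. SNZ1, which makes pyridoxal phosphate together with SNO1, had 32.5 and 24.3 RPKM of FP in D1/8, against 336 RPKM in WT (limma -3.56 ± 0.17, adjusted p = 0.000729), and 80.3 and 62.0 RPKM of mRNA, against 399 RPKM. SNO1 had 6.56 and 4.60 RPKM of FP in D1/8 and 36.5 RPKM in WT. In the WT of run 1, FP levels were 69.5 RPKM for SNZ1 and 11.2 RPKM for SNO1, so these falls were smaller against that library. Other large falls were in less studied genes. ARO5 had 13.7 and 8.33 RPKM of FP in D1/8, against 73.6 RPKM in WT (6.90-fold lower) and was 5.96-fold lower in mRNA. NIT1, a member of the nitrilase family, had 2.87 and 2.84 RPKM of FP in D1/8 and 18.5 RPKM in WT, and YLR152C had 6.01 and 5.00 RPKM, against 30.9 RPKM. QDR3, a plasma membrane transporter, was 4.05-fold lower in FP and 1.99-fold lower in mRNA.

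Genes expressed in MATa cells alone were lower in D1/8. Of the 7 a-specific genes, 5 were called lower in FP (median change -1.45) and 6 in mRNA (median -1.16), none was called higher, and for 7 of 7 in each fraction both D1/8 cultures lay below both WT libraries. MFA1, one of the genes for the secreted pheromone a-factor, had 67.0 and 92.5 RPKM of FP in D1/8, against 411 RPKM in WT of run 2 and 1312 RPKM in WT of run 1. STE2, the receptor for alpha-factor, had 148 and 146 RPKM of FP in D1/8 and 378 RPKM in WT, a 2.58-fold fall (limma -1.36 ± 0.097, adjusted p = 0.00172), and its mRNA fell 2.83-fold. BAR1, the protease that degrades alpha-factor, fell 3.18-fold in FP and 2.88-fold in mRNA, and AGA2, the adhesion subunit of a-agglutinin, fell 6.18-fold and 2.38-fold. MFA2, the second a-factor gene, had 287 and 268 RPKM of FP in D1/8 and 758 RPKM in WT.

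The other genes of this response varied. STE6, the a-factor exporter, had 61.5 and 62.5 RPKM of FP in D1/8 and 80.7 RPKM in WT and was not called in either fraction, and ASG7 was called in mRNA (1.98-fold lower) but had an adjusted p of 0.0523 in FP. Of 17 nonduplicated members of a pheromone response list, 4 were lower and 1 higher in FP, and of 19 in mRNA 3 were lower and 0 higher. The gene called higher was STE50, an adaptor of the mating kinase cascade, with 30.6 and 33.9 RPKM of FP in D1/8, against 19.5 RPKM in WT of run 2 and 27.7 RPKM in WT of run 1. GPA1, the G-protein subunit that holds the pathway off, is on chromosome VIII and had 118 and 111 RPKM of FP in D1/8, against 91.7 RPKM in WT, below 2-fold in both fractions (limma departure -0.68 ± 0.13 in FP, adjusted p = 0.0301, and -0.73 ± 0.071 in mRNA, adjusted p = 2.36e-05).

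Some genes of carbohydrate reserves and glycolysis were higher, though most of the ORFs called higher lay outside these groups. Of 17 genes of trehalose and glycogen, 5 were higher and 0 lower in FP (median change 0.46) and 4 were higher and 0 lower in mRNA (median 0.36). TSL1, a subunit of trehalose synthase, had 129 and 115 RPKM of FP in D1/8, against 55.3 RPKM in WT, a 2.20-fold rise (limma 1.13 ± 0.13, adjusted p = 0.00724), and a 2.33-fold rise in mRNA. PGM2, phosphoglucomutase, rose 1.97-fold in FP and 1.63-fold in mRNA, and GDB1, the glycogen debranching enzyme, rose 1.89-fold in FP (28.6 and 24.9 RPKM in D1/8, against 14.2 RPKM in WT). Of 20 nonduplicated members of a glycolysis and fermentation list, 4 were higher in FP and 5 in mRNA, and 0 were lower in either. GLK1, glucokinase, had 671 and 622 RPKM of FP in D1/8 and 274 RPKM in WT, 2.36-fold higher (adjusted p = 0.00201). ENO1, an enolase, had 15513 and 15051 RPKM, against 5711 RPKM, but shares 42.4% of its sequence with another coding sequence, so reads cannot be fully assigned to it. For TSL1, PGM2, GDB1, GLK1 and ENO1, both D1/8 cultures were above both WT libraries in both fractions.

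Other rises were in single genes of stress defence and of the mitochondrion. SOL4, a 6-phosphogluconolactonase of the pentose phosphate pathway, had 43.5 and 39.9 RPKM of FP in D1/8, against 13.8 RPKM in WT, a 3.02-fold rise (limma 1.56 ± 0.12, adjusted p = 0.00209), and a 2.64-fold rise in mRNA. STF2, a small stress protein first known as a stabilizer of ATP synthase, had 452 and 410 RPKM of mRNA in D1/8 and 138 RPKM in WT (limma 1.63 ± 0.080, adjusted p = 1.62e-07) and rose 2.22-fold in FP. HSP12, a membrane-protecting stress protein, had 161 and 123 RPKM of FP in D1/8, against 56.1 RPKM in WT of run 2 and 123 RPKM in WT of run 1, so culture 2 was level with the WT of run 1. CTT1, the cytosolic catalase, had 13.9 and 13.5 RPKM of FP in D1/8, against 6.97 RPKM in WT, and TFS1, an inhibitor of carboxypeptidase Y, rose 2.25-fold in FP. CYC1, cytochrome c, rose 2.18-fold in FP and 2.95-fold in mRNA, COA4, a factor for assembly of cytochrome c oxidase, rose 2.81-fold in FP, and DLD1, the mitochondrial D-lactate dehydrogenase, had 129 and 129 RPKM of FP in D1/8 and 51.9 RPKM in WT. Of 249 nonduplicated members of the list induced in the environmental stress response, 28 were higher and 5 lower in FP, and of 258 in mRNA 43 were higher and 6 lower. Most members of that list were not called, and its median change was 0.17 in FP and 0.25 in mRNA. Of 74 members of the heat shock response list of the study, 9 were higher and 3 lower in FP (median 0.17), and 17 were higher and 3 lower in mRNA (median 0.33). In both lists the share called higher was above that of all nonduplicated ORFs, which was 1.78% in FP and 2.58% in mRNA. Of the respiratory chain and ATP synthase list 1 of 30 was called higher in FP (median 0.17) and 2 of 31 in mRNA (median 0.23). A change above 0 was seen for 20 of the 30 in FP and 28 of the 31 in mRNA, so small rises were common but few were called.

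Some of the largest rises were not shared by both WT libraries. FRE7, a ferric and cupric reductase, had 69.5 and 69.9 RPKM of FP in D1/8, against 20.1 RPKM in WT of run 2 and 69.1 RPKM in WT of run 1. PHM6, a phosphate-regulated gene of unknown function, had 13.8 and 13.6 RPKM in D1/8, against 4.27 RPKM in WT of run 2 and 19.3 RPKM in WT of run 1. Neither was thus above both WT libraries in FP. SPS19, a peroxisomal enzyme of fatty acid breakdown, had 10.9 and 9.15 RPKM in D1/8, against 3.56 and 6.90 RPKM in the WT libraries of runs 2 and 1. In mRNA, HSP30, a plasma membrane heat shock protein, rose 2.75-fold and CWP1, a cell wall mannoprotein, rose 2.79-fold. The ORF with the largest FP rise, YCL042W, had 214 and 198 RPKM in D1/8, against 30.5 RPKM in WT, but it overlaps GLK1 by 106 bases and is uncertain. Over all calls, the RPKM of the WT of run 1 were used as deposited, without centring, so any offset between the runs enters the counts that follow. Of the 83 nonduplicated ORFs higher in FP and listed in the WT of run 1, 53 were also at least 1.5-fold above that library in both cultures. In mRNA 66 of 127 were. Of the ORFs called lower, 64 of 139 in FP and 139 of 200 in mRNA were also at least 1.5-fold below it.

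**Figure D3:**
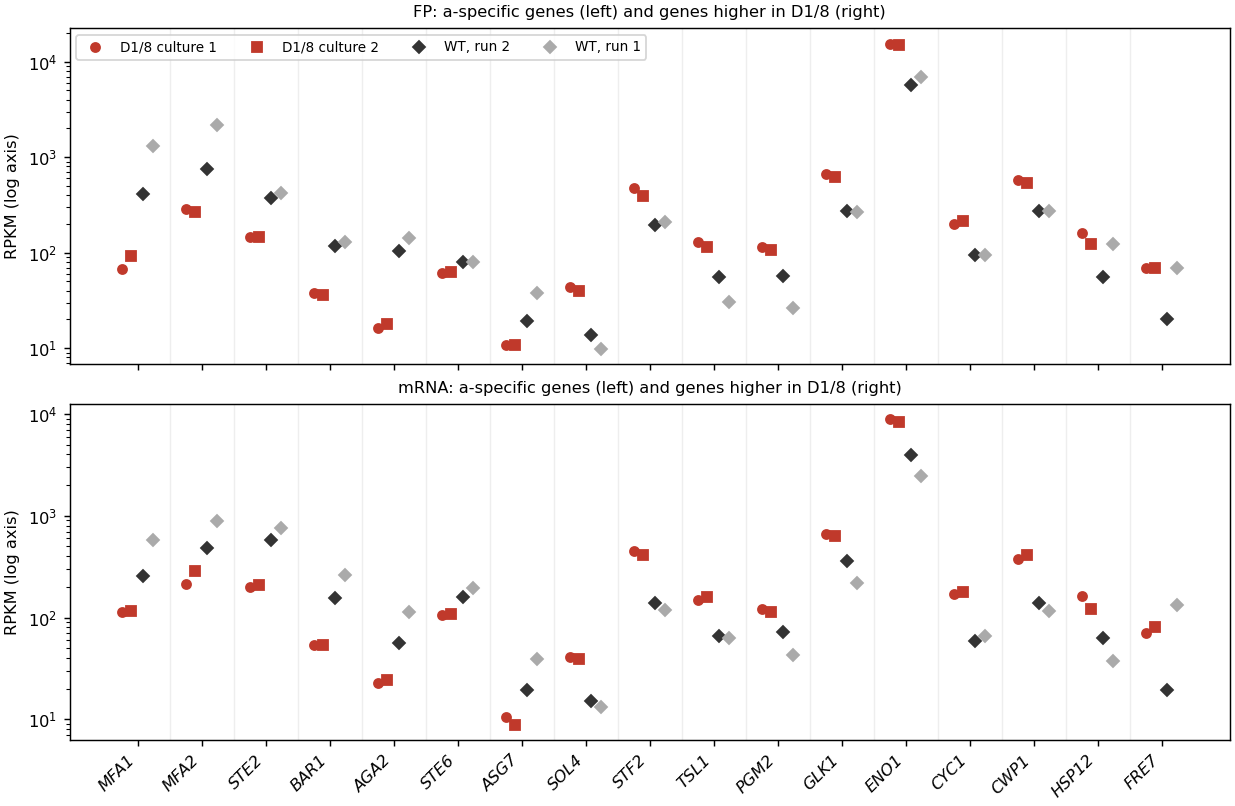
RPKM on a log axis (y axis) of the 7 a-specific genes and 10 genes called higher in D1/8 (x axis), in FP above and mRNA below. Within each gene the D1/8 cultures (red circle and square) stand left of WT of run 2 (black) and WT of run 1 (grey). The a-specific genes lie below both WT libraries and genes such as SOL4, TSL1 and CYC1 above both, while FRE7 in D1/8 lies above WT of run 2 but level with or below WT of run 1.

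The letters CCCCT, the stress response element, were searched in the same way as TGACTC, on both strands. They occurred in 38 of 83 upstream regions of ORFs called higher in FP (45.8%), in 14 of 137 called lower (10.2%) and in 1258 of 5638 of all ORFs (22.3%), and in 64 of 130 called higher in mRNA (49.2%). The windows are shown for 4 of the genes above, with CCCCT or AGGGG in capitals.
SOL4, chrVII:985834-985863, + strand: taaaaaaatcccCCCCTaagcagcgaaaat
TSL1, chrXIII:70381-70410, + strand: agggagataggaAGGGGcgggggtccgggc
PGM2, chrXIII:477848-477877, - strand: aacttacgtgaaAGGGGacgttatactttt
CTT1, chrVII:654489-654518, + strand: catttatcgtatCCCCTactgctacacgta
The core of the heat shock element, TTCNNGAA, was in 13.3% of the regions of ORFs called higher in FP, in 13.1% of those higher in mRNA and in 13% of all regions. The letters of the proteasome element, GGTGGCAAA, were in 1 of 83 regions higher in FP (1.2%), in 4 of 130 higher in mRNA (3.08%) and in 1.21% of all. The other letters searched were in few regions each. CCCCGC, found in Mig1 sites, was in 6 of 83 (7.23%) and in 2.94% of all regions, CACGTG, bound by Cbf1, in 6 of 83 and in 3.55% of all, and ACGCGT, bound by MBF, in 5 of 83 (6.02%) and in 3.53% of all. TCCGNGGA, of the Pdr element, was in 3 of 83 (3.61%) and in 1.31% of all, CAGCGTG, of the unfolded protein response, in 2 of 83 (2.41%) and in 1.24% of all, and TGCACCC, of Aft1, in 1 of 83 (1.2%) and in 1.29% of all.

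Few protein folding and degradation genes were called in FP. Of 33 nonduplicated cytosolic chaperones, 2 were higher in FP (median change 0.13), and of 34 in mRNA 6 were higher (median 0.27). Over all nonduplicated ORFs the share called higher was 1.78% in FP and 2.58% in mRNA, below that of the chaperones, though their FP share rests on 2 genes. In mRNA 31 of the 34 chaperones had a change above 0. ZUO1, a ribosome-associated J-domain chaperone, had 1677 and 1810 RPKM of FP in D1/8, against 805 RPKM in WT, a 2.16-fold rise (adjusted p = 0.00436), and rose 2.27-fold in mRNA. HSP104, the disaggregase, had 361 and 351 RPKM of FP in D1/8, against 253 RPKM in WT (1.41-fold, not called), and its mRNA rose 1.55-fold (adjusted p = 4.85e-05). None of 22 genes of folding in the endoplasmic reticulum and of its degradation pathway was called in FP, and 3 were higher in mRNA, also a larger share than over all ORFs. These were KAR2, its Hsp70, at 732 and 737 RPKM of mRNA in D1/8 and 450 RPKM in WT, PDI1, protein disulfide isomerase, at 745 and 795 RPKM, against 471 RPKM, and JEM1, a J-domain partner of Kar2, at 25.9 and 29.8 RPKM, against 17.2 RPKM. Of 40 proteasome genes 0 were called in FP (median 0.15), and in mRNA 1 was called (median 0.27), PUP1, a core subunit, 1.58-fold higher. A change above 0 was seen for 28 of these 40 in FP and 35 in mRNA. Of 129 cytosolic ribosomal protein genes listed, only 44 nonduplicated ones were tested, so most of the family is not covered. Among these 44, 0 were called in FP and 1 in mRNA, and among 65 mitochondrial ones 0 were called in either.

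**Figure D4:**
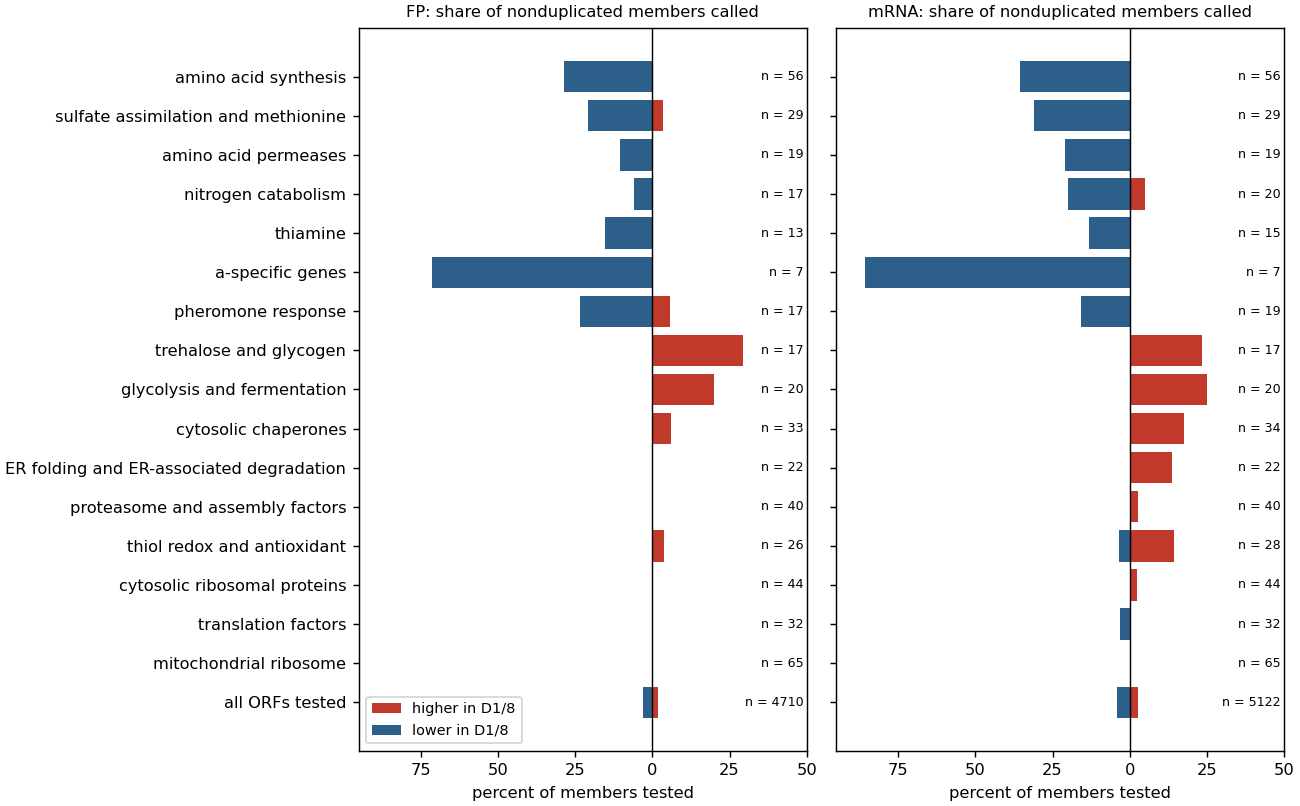
Share of the nonduplicated members of each gene list (rows) called higher in D1/8 (red, to the right) or lower (blue, to the left), in percent of members tested (x axis), in FP on the left and mRNA on the right. The row of all ORFs tested shows the background, and n is the number of members tested. Amino acid synthesis and a-specific genes extend to the left, and trehalose, glycogen and glycolysis genes to the right.

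On chromosomes I and VIII, most ORFs were not called away from the 2-fold level. In FP, 6 of 309 ORFs tested were called above 2-fold (1.94%) and 15 below (4.85%), and in mRNA 10 of 338 were above (2.96%) and 21 below (6.21%). The shares above 2-fold were close to those of nonduplicated ORFs called higher, which were 1.78% in FP and 2.58% in mRNA. The shares below 2-fold were somewhat larger than those of nonduplicated ORFs called lower, which were 2.95% and 4.18%. Of the 15 below in FP, 13 were on chromosome VIII, which held 238 of the 314 ORFs above 0 in FP on these chromosomes. A mean change at or below the WT level was seen for 9 of the 15. Without culture 1 limma called 0 above and 2 below in FP, and without culture 2 it called 1 and 1. In the fit with 9 libraries it called 0 and 0 in FP.

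The ORF farthest above 2-fold was BDH2, a putative alcohol dehydrogenase on chromosome I, with 310 and 266 RPKM of FP in D1/8, against 60.3 RPKM in WT, and 704 and 553 RPKM of mRNA, against 110 RPKM. It was 4.77-fold higher in FP (limma departure 1.24 ± 0.13, adjusted p = 0.00651). SOD2, the mitochondrial superoxide dismutase on chromosome VIII, had 860 and 844 RPKM of FP in D1/8 and 235 RPKM in WT, 3.62-fold higher, and was 3.58-fold higher in mRNA. CYS3, cystathionine gamma-lyase, which makes cysteine, had 1617 and 1518 RPKM of FP in D1/8, against 493 RPKM in WT, 3.17-fold, while 6 of the 29 nonduplicated sulfur genes above were lower. SWH1, an oxysterol-binding protein, was 3.27-fold higher in FP, and ATS1, a protein linked to microtubules and tRNA modification, was 3.54-fold higher in FP but 1.92-fold in mRNA. ATS1 FP was 41.4 and 39.3 RPKM in D1/8 and 19.7 RPKM in WT of run 1, so its departure from 2-fold was absent against that library. In mRNA, MUP3, a low-affinity methionine permease, had 93.6 and 86.1 RPKM in D1/8 and 22.6 RPKM in WT, WSC4, a cell wall sensor, had 34.4 and 34.9 RPKM, against 9.32 RPKM in WT of run 2 and 35.6 RPKM in WT of run 1, and RTC3 and GRE3, genes of the stress response, were 3.53-fold and 3.09-fold higher. The WSC4 departure was thus absent against the WT of run 1.

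Below 2-fold, apart from ARG4, stood genes of sugar uptake, ribosomes and phosphate. HXT4 and HXT1, hexose transporters, had 22.5 and 22.9 RPKM (HXT4) and 233 and 209 RPKM (HXT1) of FP in D1/8, against 24.1 and 215 RPKM in WT, so both were at the level of 1 copy against this library (limma departures -1.08 ± 0.18, adjusted p = 0.0215, and -0.96 ± 0.11, adjusted p = 0.00724). In the WT of run 1 HXT4 FP was 25.7 RPKM and HXT1 FP was 110 RPKM as deposited. HXT1 was thus near 2-fold against that library only on values that were not centred. RPS20 and RPL8A, ribosomal proteins of the small and large subunits, had 4282 and 4438 RPKM (RPS20) and 2038 and 2076 RPKM (RPL8A) of FP in D1/8, against 4683 and 1798 RPKM in WT. Their mRNA was 1.57-fold and 1.51-fold higher than WT and was not called below 2-fold. RPL8A shares 23.4% of its sequence with another coding sequence. CIC1, a ribosome biogenesis factor, was 1.16-fold higher in FP and 1.63-fold in mRNA, and STP2, an activator of amino acid permease genes, was 1.23-fold higher in FP. SPL2, a phosphate-regulated inhibitor of low-affinity phosphate uptake, had 10.3 and 8.42 RPKM of FP in D1/8 and 12.3 RPKM in WT, and YHI9, a gene of unknown role, had 139 and 140 RPKM, against 152 RPKM. The WT of run 1 had 5.66 RPKM of SPL2 and 66.2 RPKM of YHI9 in FP, so on these deposited values neither was at the level of 1 copy against that library. In mRNA the mitochondrial pyruvate carrier subunit MPC2 was at 2198 and 2002 RPKM in D1/8, against 1944 RPKM in WT of run 2 and 1054 RPKM in WT of run 1, below 2-fold against run 2 only, and the acid phosphatases PHO11 and PHO12, which share 93.2% and 92.2% of their sequence with another coding sequence and are uncertain, were at 43.9 and 42.9 RPKM (PHO11) in D1/8, against 43.7 RPKM in WT of run 2 and 26.4 RPKM in WT of run 1. YAR009C and YAR010C, retrotransposon reading frames with 98.3% and 100% shared sequence, were also called below in FP and are uncertain.

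**Figure D5:**
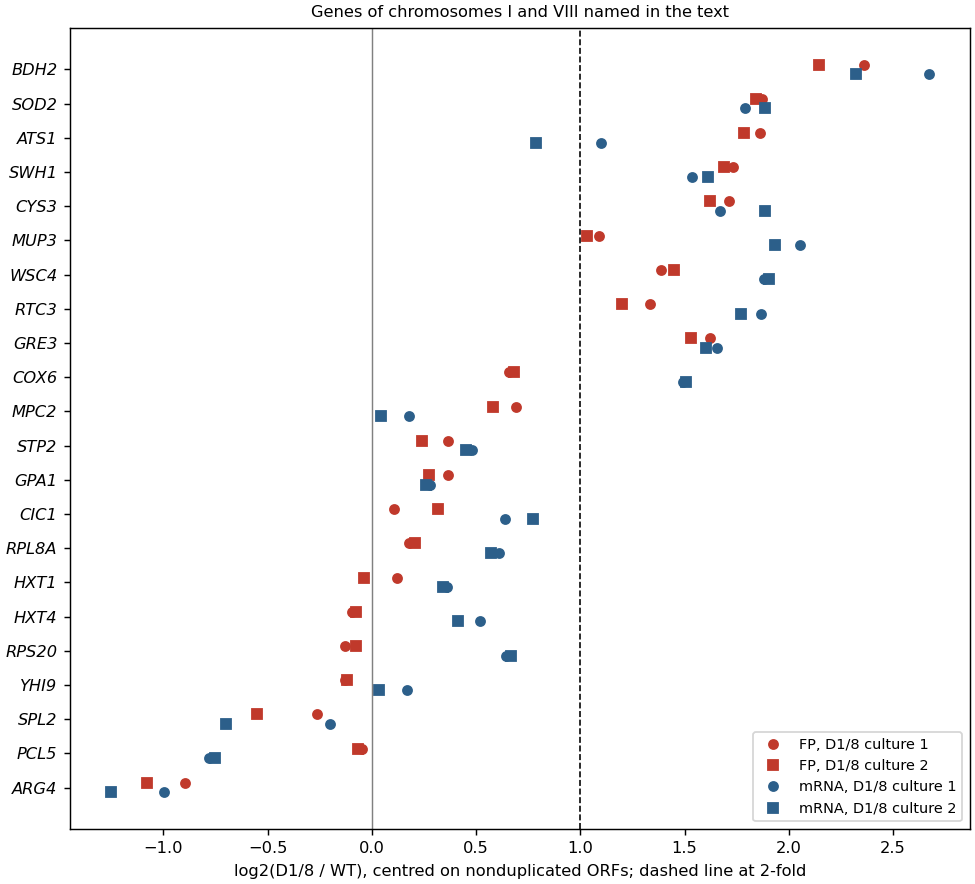
Log2 ratio of D1/8 to WT (x axis) for 22 genes of chromosomes I and VIII (rows), in FP (red) and mRNA (blue), with culture 1 as circles and culture 2 as squares. The solid line is the WT level and the dashed line is 2-fold. BDH2 lies farthest right, HXT4, RPS20 and YHI9 lie near the WT level in FP, and ARG4 lies about 1 unit below it in both fractions.

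Ribosome density, the change in FP less the change in mRNA in 1 fit of both fractions, was called higher for 7 of 5019 ORFs (0.139%) and lower for 18 (0.359%). Among ORFs with a mean of at least 10 RPKM, CPA1 had the largest fall, at -1.27 (adjusted p = 0.0291). Its FP level was 8.62-fold lower and its mRNA 3.52-fold lower. CPA1 is known for an upstream peptide that stalls ribosomes when arginine is plentiful. NOP19, a ribosome biogenesis factor, had 37.9 and 41.9 RPKM of FP in D1/8, against 82.0 RPKM in WT, with mRNA at 81.1 and 75.7 RPKM, against 69.3 RPKM. DAD2, a kinetochore protein, LSM8, a splicing factor, BTT1, a subunit of the nascent chain complex, ERP4, a protein of vesicle transport, and QDR3 had density changes of -1.12, -1.08, -1.06, -1.01 and -0.98. Against the WT of run 1 the density changes of LSM8 (0.84), BTT1 (1.14) and ERP4 (0.32) turned the other way. On chromosome VIII, MUP3 (-0.96) and COX6, a subunit of cytochrome c oxidase (-0.83), were lower in density: COX6 had 344 and 350 RPKM of FP in D1/8, against 218 RPKM in WT, with mRNA at 282 and 285 RPKM, against 100 RPKM.

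Higher density was called for YIH1, an inhibitor of the activation of Gcn2, the kinase that raises Gcn4 translation (0.86), MNL1, a mannosidase of degradation from the endoplasmic reticulum (0.78), SYG1, a membrane protein (0.69 here and -0.66 against the WT of run 1), LST4, which acts in the sorting of Gap1 (0.83), and YCL042W (1.70). YIH1 had 53.6 and 52.2 RPKM of FP in D1/8, against 30.2 RPKM in WT of run 2 and 51.4 RPKM in WT of run 1, with mRNA at 95.9 and 93.5 RPKM, against 99.2 and 49.8 RPKM. These density calls are the least steady of the comparison. FP and mRNA libraries of 1 culture came from 1 lysate, and with the culture as a block limma called 0 higher and 0 lower, while 766 ORFs had an unadjusted p under 0.05. Leaving out either D1/8 culture also gave 0 and 0.

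D1/8 also differed from the D1/2/8/11 line, which shares the additional chromosomes I and VIII. In a direct limma test of the 2 cultures of each, with no WT library, 26.0% of 4042 nonduplicated ORFs were called in either direction in FP and 22.4% of 4440 in mRNA. Of the ORFs lower in D1/8 than in WT in FP, 115 were tested here, and 31 of these were higher and 19 lower in D1/8 than in D1/2/8/11. In mRNA the balance was the other way, with 17 higher and 41 lower of 186 tested. Of the ORFs higher in D1/8 than in WT, 20 of 73 in FP and 70 of 118 in mRNA were also higher than in D1/2/8/11, while 3 and 1 were lower. All these ORFs were picked in the same D1/8 libraries that the direct test uses, so a deviation of those libraries moves both results the same way. The share of all ORFs called in each direction was not taken, and the counts are a description only. In FP, ARG1 and ARG7 were lower in D1/8 than in WT but higher than in D1/2/8/11. ARG1 FP was 31.0 and 23.9 RPKM in D1/8, against 10.6 and 15.9 RPKM in D1/2/8/11, and ARG7 was 39.3 and 38.0 RPKM, against 15.5 and 17.9 RPKM, while neither was called in mRNA. SNZ1 was the other way, at 32.5 and 24.3 RPKM in D1/8 and 86.3 and 88.9 RPKM in D1/2/8/11. KAR2 and PDI1, the folding genes above, were 2.17 and 2.02 log2 units higher in D1/8 FP than in D1/2/8/11, though neither was called against WT in FP. PDI1 FP was 1020 and 1037 RPKM in D1/8, 228 and 283 RPKM in D1/2/8/11 and 708 RPKM in WT of run 2. For PDI1 the D1/2/8/11 cultures thus lay well below WT. The comparisons of D1/8 and of D1/2/8/11 with WT share the WT libraries, and the values are given side by side for that reason.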

How the data were processed

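Total RNA and ribosome-protected fragments were sequenced by the study on a HiSeq 2000 after TruSeq library preparation. Per the study's methods and the submitters' processing notes the authors trimmed reads with cutadapt, aligned them without mismatches to sacCer3 mRNAs with Bowtie, counted reads in coding sequences and deposited RPKM values, with the aneuploid libraries scaled to WT over nonduplicated genes. Tool versions are not given in the sources used here. RPKM are not counts, so limma 3.58.1 (R 4.3.3) was run on log2(RPKM + 0.5) over ORFs above 0 in the D1/8 and WT libraries of run 2 with a mean of at least 1 RPKM: 5 libraries a fraction (2 of D1/8, 2 of D1/2/8/11, 1 of WT), with Benjamini-Hochberg adjustment over all ORFs tested. The D13 and D1/2/8 libraries were used in an alternative only. p-values measure the spread between 2 cultures of each line. From 97.8% to 99.2% of the FP values of these libraries, and fewer of the mRNA values, were whole multiples of 1 read within the precision deposited, and no value above 0 rested on fewer than 4 reads. Depth above is the sum of these reads. Of 6061 ORFs listed, 28 are mitochondrial and were left out, and 248 have an interrupted coding sequence, 247 of which are listed at 0 throughout. The members and gene lists were chosen with earlier results of these data known. Genes were named by rank among called ORFs with a mean of at least 10 RPKM (12 each way in FP and 5 in mRNA outside chromosomes I and VIII, 8 and 4 on them, 6 for density), by up to 4 members a list, and as strain checks. ARG7, ARG8, GCN4, ORT1, HIS4, HIS5, LYS1, LEU4, MET6, STE50, ARG2, GPA1, KAR2, PUP1, HSP104, RTC3, GRE3, RPL8A, CIC1, STP2, MPC2, ERP4, LST4 and the overlap and run 1 comparisons were chosen after their values were seen. All letters were searched on both strands. On data simulated with the typical spread between cultures, the same for every ORF of a line, limma recovered 100% of 4-fold and 100% of 2-fold changes in FP and in mRNA. WT was simulated with the spread of the D1/8 cultures, so no larger deviation of its 1 culture entered. The recovery therefore does not measure how many changes the fit of the real libraries can detect. FP and mRNA of a culture share a lysate, so the density fit was repeated with culture as a block. Deviations of the 2 fractions correlated at 0.0642 for D1/8 and -0.0838 for D1/2/8/11 over 4967 ORFs. One gene that the rule names is not reported here, and others it names were left out of the text for length.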

Additional observations from a re-analysis of the deposited data

Results flagged for a closer look

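Among the genes named by rank, these were at least 1.5-fold on 1 side of WT in both D1/8 cultures. They were also at least 1.5-fold on the other side in both D1/2/8/11 cultures and were called in the direct limma test of the 2 lines. That test was added after seeing the data and uses no WT library. Its call was part of the selection and it uses the same D1/8 and D1/2/8/11 libraries, so it gives no separate support. DLD1, the D-lactate dehydrogenase, was 3.21 log2 units higher in D1/8 than in D1/2/8/11 in FP (129 and 129 RPKM in D1/8, 11.2 and 16.2 RPKM in D1/2/8/11, 51.9 RPKM in WT) and 1.75 log2 units higher in mRNA. FRE7, the ferric and cupric reductase, was 3.23 log2 units higher in D1/8 in FP, with 69.5 and 69.9 RPKM in D1/8, 8.01 and 6.06 RPKM in D1/2/8/11 and 20.1 RPKM in WT. BDH2, on chromosome I and so doubled in both lines, was 3.21 log2 units higher in D1/8 in FP, with 310 and 266 RPKM in D1/8, 32.2 and 29.2 RPKM in D1/2/8/11 and 60.3 RPKM in WT. WSC4, on chromosome VIII and doubled in both lines, was 2.94 log2 units higher in D1/8 in mRNA, with 34.4 and 34.9 RPKM in D1/8, 4.45 and 3.75 RPKM in D1/2/8/11 and 9.32 RPKM in WT. FRE7 and WSC4 in D1/8 were level with or below the WT of run 1 (69.1 RPKM in FP and 35.6 RPKM in mRNA), DLD1 and BDH2 above it (33.5 and 17.3 RPKM in FP). The causes of these differences were not tested.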

How the results depend on the processing

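The FP and density calls moved with the libraries in the fit more than the mRNA calls did, and the counts in all 3 moved with the WT reference. With all 9 libraries of run 2, limma called 0 higher and 0 lower in FP, 0 above and 0 below 2-fold in FP and 0 and 0 in density (619 ORFs at an unadjusted p under 0.05 in FP and 517 in density). With only the D1/8 and WT libraries it called 159 and 225 in FP and 74 and 122 in density. Leaving out 1 culture gave 8 to 158 higher and 29 to 226 lower in FP, 0 to 9 above and 1 to 21 below 2-fold in FP, and 0 to 74 higher and 0 to 121 lower in density. With culture as a replicate block, density calls were 0 higher and 0 lower (766 ORFs at an unadjusted p under 0.05). With a mean of at least 10 RPKM, 28 ORFs were lower in density. At 1.3-fold, 154 were higher in FP, 13 above 2-fold in FP, 362 higher and 448 lower in mRNA, and 23 above and 40 below 2-fold in mRNA. Requiring at least 2-fold, 23 were higher and 59 lower in FP, 1 above and 9 below 2-fold in FP, 26 higher and 70 lower in mRNA, 2 above and 6 below 2-fold in mRNA, and 3 higher and 7 lower in density.

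With the WT of run 1 as the reference, 322 were higher and 429 lower in FP, 18 above and 33 below 2-fold in FP, 669 higher and 491 lower in mRNA, 41 above 2-fold in mRNA, and 532 higher and 818 lower in density. Asking for 1.5-fold from that library as well, on RPKM as deposited without centring, left 53 higher and 64 lower in FP and 66 and 139 in mRNA. This alternative was added after seeing the data. The FP medians of chromosomes I and VIII were 0.89 and 0.93 against it and 1.04 and 0.95 with 1 RPKM added. Their mRNA medians were 1.034 and 1.021 against it and 0.92 and 0.94 with 1 RPKM added, and chromosome I was at 0.98 over ORFs of at least 10 RPKM. Of 154 calls of named genes, 104 were kept against the WT of run 1, 29 lost and 21 reversed. Those reversed in FP were ATS1 (-0.29), STE50 (-0.089), YIH1 (-0.26), PHM6 (-0.77), HSP12 (-0.11), FRE7 (-0.30), BTT1 (0.76), LSM8 (0.49) and ERP4 (0.11). In mRNA they were WSC4 (-0.84), FRE7 (-0.63), HXT1 (0.15), SPL2 (0.51), MPC2 (0.19), PHO12 (0.23) and GAP1 (0.022), and in density YIH1 (-1.39), SYG1 (-0.66), BTT1 (1.14), LSM8 (0.84) and ERP4 (0.32), with chromosome I and VIII genes given as departures from 2-fold outside density. The WT of run 1 had 1660318 FP reads. The fit with 9 libraries kept 68 of the 154, all in mRNA, and leaving out D1/8 culture 1 or 2 kept 99 or 103. The causes were not tested.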

Other observations

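Of 23 nonduplicated cyclins and cell cycle kinases, and of 10 histone genes, limma called 0 in FP and 0 in mRNA. Of 13 thiamine genes tested in FP 2 were lower in D1/8 (median change -0.31), and of 15 in mRNA 2 were lower (median -0.32). Of 26 thiol redox and antioxidant genes 1 was higher in FP (median 0.18), and of 28 in mRNA 4 were higher and 1 lower (median 0.29). Of 426 nonduplicated members of the list repressed in the environmental stress response 1 was higher and 8 lower in FP (median -0.04). Of 432 in mRNA 3 were higher and 2 lower (median -0.05). Over all nonduplicated ORFs 1.78% were called higher and 2.95% lower in FP, and 2.58% and 4.18% in mRNA. The share of the repressed list called lower was thus not above that of all ORFs in either fraction.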
